A study of Mus musculus with 12 samples.

Results

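The immunoglobulin kappa variable segments (Igkv) were examined in RNA of mouse liver immune cells. A segment was taken as a member when its gene name begins with Igkv, which gave 162 of the 40840 genes listed in each library. Of these, RefSeq annotated 102 as V segments and 60 as V segment pseudogenes, in 20 subgroups named by the number after Igkv. The family was chosen by TPM values of these libraries, since Igkv3-9 had been seen at a lower level on high-fat diet (HFD) than on normal chow diet (NCD) in wild-type (WT) mice, so the WT diet values are a description, and counts of calls that use them are printed without anything being read from them.

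Male mice of 8 to 10 weeks of age were fed HFD or NCD for 12 weeks, and RNA was taken from the liver cell fraction that a Percoll step separates from hepatocytes. The 4 groups were WT-NCD and WT-HFD, of strain C57BL/6, and Casp11-/- NCD and Casp11-/- HFD, labelled as strain B6.129S4(D2)-Casp4tm1Yuan/J, a whole-body knockout of the gene for caspase-11. Each group held 3 mice, 1 library each. WT-NCD replicate 3 was left out, as the rule for the family requires, which leaves 2 WT-NCD libraries and 11 in all.

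Kappa light chains are built in B cells. One V segment is joined by RAG-mediated recombination to one of the short joining genes (Igkj), and the product is spliced to the single constant gene (Igkc). Each B cell clone usually expresses 1 rearranged kappa chain, so the mix of V segments in RNA reflects many clones. Plasma cells, the antibody-secreting descendants of B cells, carry far more immunoglobulin RNA per cell than resting B cells, and IgA is a main isotype of the gut. Macrophages do not rearrange these genes. In bulk RNA of this kind, fewer cells of a type and less RNA per cell cannot be told apart.

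The coding ends nearest the joining site are shown for 3 sets of segments, because near-identical relatives limit how well reads of 75 bases can be assigned. Each stretch is the last 75 coding bases in GENCODE vM21 (GRCm38), given 5′ to 3′ on the strand of the gene, and capitals mark bases that differ from the first segment of its set. The first set holds Igkv10-96, the segment of highest mean level, at chr6:68631963-68632037 (minus strand), with Igkv10-94 at chr6:68704508-68704582 (minus strand) and Igkv10-95 at chr6:68680774-68680848 (plus strand).
Igkv10-96: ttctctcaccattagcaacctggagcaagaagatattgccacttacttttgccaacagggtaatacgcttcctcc
Igkv10-94: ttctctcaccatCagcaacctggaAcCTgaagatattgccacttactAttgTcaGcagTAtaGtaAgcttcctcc
Igkv10-95: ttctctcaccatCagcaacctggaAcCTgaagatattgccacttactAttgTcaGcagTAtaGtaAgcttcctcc
Igkv10-94 and Igkv10-95 each differed from Igkv10-96 at 11 of the 75 positions.

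The second set holds Igkv1-110 (chr6:68271193-68271267, plus strand) and Igkv1-117 (chr6:68121753-68121827, plus strand), which were both among the 4 segments of highest mean level. They differed at 4 of 75 positions, and their whole coding parts of 359 bases were 97.2% identical.
Igkv1-110: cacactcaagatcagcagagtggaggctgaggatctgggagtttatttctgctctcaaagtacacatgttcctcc
Igkv1-117: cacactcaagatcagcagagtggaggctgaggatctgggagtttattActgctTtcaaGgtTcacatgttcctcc
The third set holds Igkv3-9 (chr6:70588703-70588777, plus strand), its closest relative Igkv3-10 (chr6:70573156-70573230, plus strand), and Igkv3-2 (chr6:70698993-70699067, plus strand), the segment of highest mean level in that subgroup.
Igkv3-9: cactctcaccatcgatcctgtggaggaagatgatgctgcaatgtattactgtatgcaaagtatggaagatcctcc
Igkv3-10: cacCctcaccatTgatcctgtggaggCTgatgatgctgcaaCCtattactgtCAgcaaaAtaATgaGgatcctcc
Igkv3-2: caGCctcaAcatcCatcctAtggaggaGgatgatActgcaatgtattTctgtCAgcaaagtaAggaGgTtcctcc
Igkv3-9 was 89.7% identical to Igkv3-10 over the coding part.

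GENCODE held transcripts of 160 members, and for 155 of them the closest relative was in the same subgroup. The median identity to the closest relative was 91.3% over the transcript. Of the 160, 78 shared no stretch of 75 bases with any other gene, and 82 shared at least 1 such stretch. Igkv10-96 shared 20% of its 75-base windows with Igkv10-94, and Igkv1-110 shared 31.2% with Igkv1-117. Igkv14-111 shared none. Levels of single segments with shared windows are uncertain, since how the authors counted reads with several matches is not given in the sources used here. A division of such reads among members would leave the sum over the family the same, but some members also shared windows with genes outside it. Igkv2-137 shared 53.4% of its windows with Gm42889, and Igkv17-127 shared 24.2% with Igkv17-121 and Gm49792.

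The deposited values are TPM (transcripts scaled to a fixed library total), with every value below 1.01 TPM set to that floor. The joining genes Igkj1, Igkj3, Igkj4 and Igkj5 had one and the same value within each library, 1.11 to 5.18 TPM for Igkj1 in the 11 libraries. These were taken as the values of genes without reads, and from them read numbers could be recovered for the other genes. All Igkv values under 200 reads came out whole within 0.02 of a read. Over all genes, 97.5% to 99.3% of such values did. The libraries held 1884519 recovered reads (Casp11-/- HFD replicate 1) to 12447882 (WT-NCD replicate 2). In WT-NCD replicate 3, 152 of 160 segments had a product of TPM and exonic length within 25% of that of Igkj1, so its Igkv values of 14.3 to 272 TPM look like those of genes without reads.

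Casp4, which encodes caspase-11, was at 5.60 to 15.6 TPM in the WT libraries used. It was at 2.56 to 4.93 TPM in 4 libraries labelled Casp11-/-, and at 15.2 and 8.68 TPM in Casp11-/- NCD replicate 3 and Casp11-/- HFD replicate 2. The values in these 2 libraries lie within the WT range, so genotypes are given as labelled. Against the label of hepatic macrophages, the 15 B cell markers summed to 668 to 2843 TPM in the NCD libraries, where 10 Kupffer cell markers summed to 65.7 to 382 TPM. On HFD the B cell sum was 219 to 495 TPM and the Kupffer cell sum 301 to 917 TPM. Marco was at the floor in all 5 NCD libraries, but not every Kupffer cell marker was lower on NCD. Csf1r had a mean of 108 TPM in Casp11-/- NCD and 48.1 TPM in Casp11-/- HFD, and Adgre1 28.1 and 25.1 TPM. In WT both had a higher mean on HFD. The U3 small nucleolar RNAs, which act in ribosomal RNA processing, held 25.8% to 58.5% of TPM on HFD and 1.24% to 4.84% on NCD, and their part in the results was not tested.

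The Igkv segments together were lower on HFD than on NCD in both genotypes, with no overlap between the diets. They summed to 20548 and 19342 TPM in the WT-NCD libraries, and to 912, 553 and 1291 TPM in the WT-HFD libraries. In the libraries labelled Casp11-/-, they summed to 18150, 1687 and 3206 TPM on NCD and to 627, 501 and 469 TPM on HFD. Casp11-/- NCD replicate 1 was thus near the WT-NCD libraries, while replicates 2 and 3 lay between that library and the HFD libraries. The family held 1.89% to 2.01% of all TPM in WT-NCD, and 0.0458% to 0.0616% in Casp11-/- HFD. The mean of NCD was 21.7 times that of HFD in WT (19945 ± 852 TPM, SD, n = 2, against 919 ± 369 TPM, n = 3). In Casp11-/- mice it was 14.4 times (7681 ± 9098 TPM against 532 ± 83.9 TPM, SD, n = 3 each), and 4.597 times without Casp11-/- NCD replicate 1.

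Because the U3 RNAs took more of the TPM on HFD, the sum was also expressed per 100 TPM of protein-coding genes. It was 5.93 and 5.01 in WT-NCD and 0.365, 0.346 and 0.503 in WT-HFD. The Casp11-/- NCD libraries were at 4.85, 0.740 and 0.744, and the Casp11-/- HFD libraries at 0.320, 0.210 and 0.200. The diets did not overlap on this scale either, and the ratio of means was 13.5 in WT and 8.68 in Casp11-/- mice, or 3.05 there without Casp11-/- NCD replicate 1. Per 10000 recovered reads, Igkv took 59.1 and 51.9 in WT-NCD and 2.80 to 4.40 in WT-HFD. The same measure was 48.3, 6.56 and 6.31 in Casp11-/- NCD and 1.68 to 2.78 in Casp11-/- HFD.

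**Figure D1:**
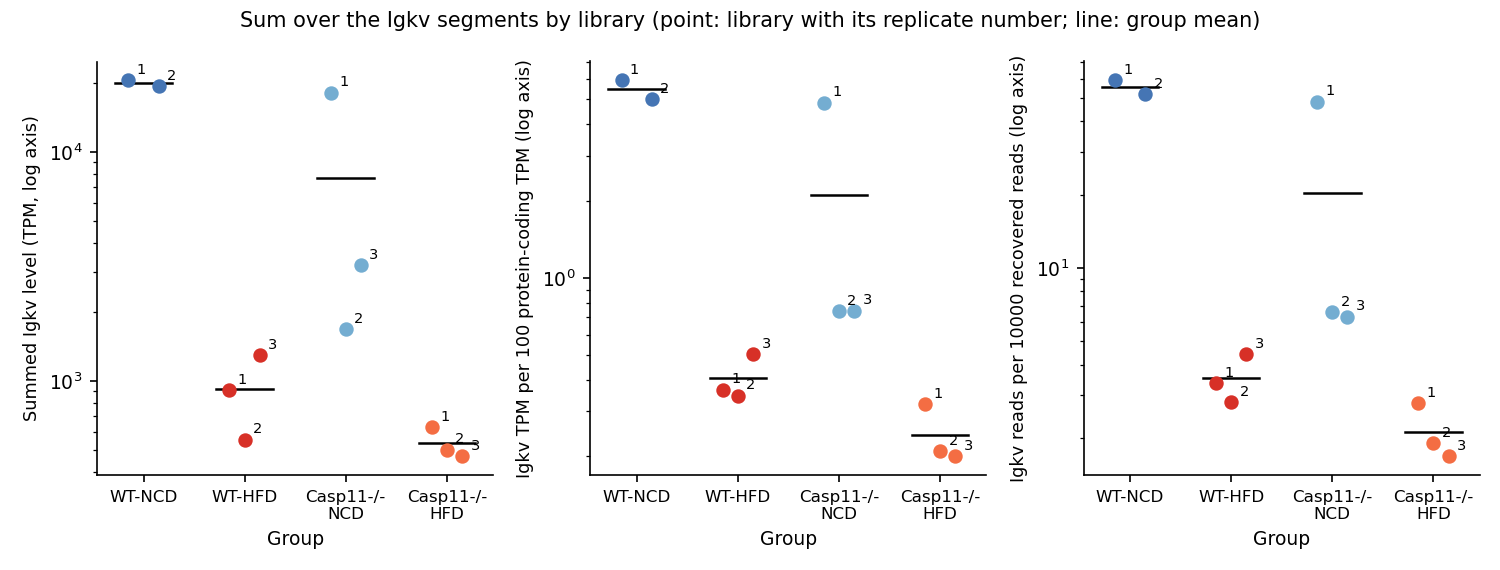
Sum over the Igkv segments in each of the 11 libraries, on log axes, as TPM (left), per 100 protein-coding TPM (middle) and as reads per 10000 recovered reads (right); points are libraries with their replicate numbers and lines are group means. In each panel the HFD libraries lie below all NCD libraries of their genotype, and Casp11-/- NCD replicate 1 stands near WT-NCD, well above the other 2 libraries of its group.

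The V segments moved with the constant gene to which they are spliced. Igkc was at 35562 and 33480 TPM in WT-NCD, then 1512, 729 and 2509 TPM in WT-HFD, 33923, 2900 and 5149 TPM in Casp11-/- NCD, and 1197, 886 and 783 TPM in Casp11-/- HFD. The summed Igkv level was 0.515 to 0.759 times the Igkc level in every one of the 11 libraries, a range that includes both diets and both genotypes. Against Cd79a, a chain of the B cell receptor complex, the ratio was 39.0 and 36.0 in WT-NCD and 31.8 in Casp11-/- NCD replicate 1. The other 8 libraries had 5.15 to 13.4. Against Jchain, which links the units of secreted IgA and IgM, the ratio ran from 7.80 to 22.2. The 3 NCD libraries of highest Igkv level thus had more Igkv per unit of Cd79a than the rest, but not more per unit of Jchain.

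Casp11-/- NCD replicates 1 and 3 differed in this respect. Cd79a was 571 TPM in replicate 1 and 480 TPM in replicate 3. Jchain was 2327 TPM in replicate 1 and 214 TPM in replicate 3, and Igha, the constant gene of IgA, was 13354 TPM and 695 TPM. The summed Igkv level was 31.8 times the Cd79a level in replicate 1 and 6.67 times in replicate 3.

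Single segments spanned a wide range of levels. Igkv10-96 was the highest by mean and had 2097 and 1473 TPM in WT-NCD. On WT-HFD it had 38.1, 36.4 and 60.6 TPM. Its values were 1596, 117 and 190 TPM in Casp11-/- NCD and 19.97, 37.5 and 45.1 TPM in Casp11-/- HFD. Every HFD library was below every NCD library for this segment, in both genotypes together. These levels rested on 6099 reads in WT-NCD replicate 1 and on 17 reads in Casp11-/- HFD replicate 1. The 12 segments of highest mean were, in order, Igkv10-96, Igkv1-110, Igkv6-23, Igkv1-117, Igkv6-15, Igkv1-135, Igkv8-30, Igkv10-94, Igkv3-2, Igkv6-17, Igkv14-111 and Igkv6-25. Neighbours in this order differed by less than their spread over libraries.

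Igkv6-23 and Igkv6-15, members of the Igkv6 subgroup, behaved alike. Igkv6-23 was at 869 and 967 TPM in WT-NCD, then 31.4, 27.2 and 43.3 TPM in WT-HFD, 997, 56.0 and 92.3 TPM in Casp11-/- NCD, and 16.5, 16.8 and 15.2 TPM in Casp11-/- HFD. Igkv6-15 was at 924 and 1007 TPM in WT-NCD, then 24.8, 18.9 and 71.4 TPM in WT-HFD, 774, 93.8 and 131 TPM in Casp11-/- NCD, and 17.6, 13.0 and 21.3 TPM in Casp11-/- HFD. The diets did not overlap for either segment. For Igkv1-110 they did not overlap within a genotype, but did across genotypes. It had 1074 and 852 TPM in WT-NCD and 934, 54.1 and 131 TPM in Casp11-/- NCD, and its 92.6 TPM in WT-HFD replicate 3 lay above the 54.1 TPM of Casp11-/- NCD replicate 2. Igkv3-2 was highest in Casp11-/- NCD replicate 1, at 695 TPM against 269 and 234 TPM in WT-NCD, and its 42.9 TPM in Casp11-/- HFD replicate 2 lay above the 28.02 TPM of Casp11-/- NCD replicate 2. Of these 12 segments, 6 had every HFD library below every NCD library, against 5.6% of all genes tested. The 12 were chosen by a mean that the high NCD values dominate, so this count is a description.

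**Figure D2:**
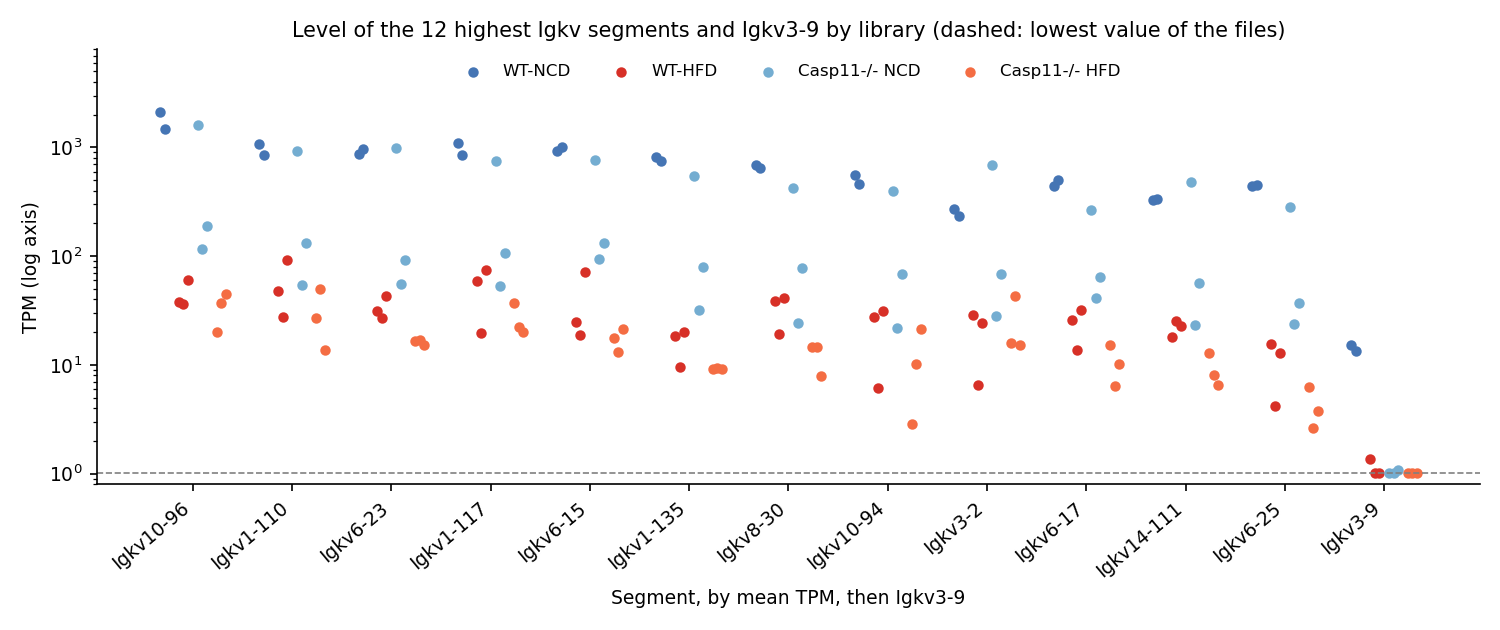
TPM on a log axis of the 12 Igkv segments of highest mean and of Igkv3-9 in the 11 libraries, with 1 point per library coloured by group; the dashed line is the floor of 1.01 TPM. For the 12 segments the WT-NCD libraries and 1 Casp11-/- NCD library form an upper band and all 6 HFD libraries lie below 100 TPM, whereas Igkv3-9 leaves the floor clearly in WT-NCD only.

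No segment exceeded 100 TPM in any HFD library, the highest being 92.6 TPM, whereas 59 segments did so in at least 1 NCD library. Of the 162 members, 46 had all HFD libraries below all NCD libraries, against 5.6% of the 17950 genes tested. Within the libraries labelled Casp11-/-, 70 members had this separation, against 16.4% of genes. Within WT it was 100 members, against 40.3% of genes, a comparison that uses the libraries from which the family was chosen. All of these members were among the 102 that passed the filter described next, except 1 in the WT count.

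The effect of HFD in Casp11-/- mice was tested with limma on log2(TPM + 1) over the 17950 genes that exceeded the floor in 3 or more libraries. Of the 162 members, 102 passed that filter, 45 were at the floor in all 11 libraries and 15 were above it in 1 or 2. On HFD, 57 of the 102 were lower at an adjusted p under 0.05 and 0 were higher, against 0.986% of all genes lower, 0.117% higher and 1.1% in either direction. The log2 fold change was below 0 for 101 of the 102, against 69.6% of all genes, and its median was -2.68, against -0.51 for all genes. The filter counts libraries of any group, so a segment above the floor on NCD alone could pass it and could not come out higher. A filter of 6 libraries cannot be met by the 5 NCD libraries alone. Under it, 73 of 85 were called lower, against 3.69% of all genes. At an unadjusted p under 0.05, 86 of the 102 were lower, against 24.3% of all genes. Such a fold change on the log2(TPM + 1) scale understates the change of low segments.

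The number of calls depended on the libraries and on the fit, while most members stayed lower in each of them. Without Casp11-/- NCD replicate 1, 10 of 100 were called lower, against 0.136% of all genes, and 94 were below 0. Without Casp11-/- NCD replicate 2, 87 of 102 were called, but so were 46.1% of all genes. Without Casp11-/- NCD replicate 3 there were 35 (0.431% of all genes), and without Casp11-/- HFD replicate 1 there were 34 (0.384% of all genes). Without Casp11-/- NCD replicate 3 and Casp11-/- HFD replicate 2, the libraries with Casp4 in the WT range, 46 of 99 were called (0.567% of all genes). With all 12 libraries 0 of 106 were called and 104 were lower. Of these 106, 70 had an unadjusted p under 0.05, against 8.48% of all genes in either direction. With genes above the floor in 1 library included, 0 of 117 were called and 113 were lower. At an unadjusted p under 0.05 there were 80, against 21.8% of all genes in either direction. With limma-voom on the recovered reads, a fit added after the data were seen, 0 of 102 were called (30 at an unadjusted p under 0.05), while 57 of all 17950 genes were called lower, and 100 members were below 0.

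Scaling every library to the same protein-coding total left 30 members called, all lower, and 93 of 102 below 0. This scaling moved the all-gene median of the log2 fold change from -0.51 to -0.05 in Casp11-/- mice and from -0.27 to 0.28 in WT. It also changed the split of all calls in Casp11-/- mice from 21 higher and 177 lower to 263 higher and 128 lower. The median of the Igkv segments under it was -2.18.

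The 10 segments of smallest p had log2 fold changes of -4.67 to -2.81, with standard errors of 0.473 to 0.656 and adjusted p of 0.00073 to 0.0076 in limma. Igkv15-103 had the largest change, -4.67 ± 0.65 (SE, adjusted p = 0.00073, limma). It was at 352, 53.1 and 164 TPM in Casp11-/- NCD and at 9.65, 4.03 and 2.55 TPM in Casp11-/- HFD, with no overlap. Its WT values were 245 and 364 TPM on NCD and 10.8, 3.52 and 28.4 TPM on HFD. Igkv4-53 followed, at 197, 34.0 and 30.8 TPM against 2.75, 1.15 and 2.24 TPM (-4.35 ± 0.58, SE, adjusted p = 0.00073, limma). The 1.15 TPM of Casp11-/- HFD replicate 2 stood for 2 reads. The other 8 were Igkv8-27, Igkv2-137, Igkv14-100, Igkv3-12, Igkv4-68, Igkv17-127, Igkv6-15 and Igkv6-25.

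These segments of smallest p were mostly not those of highest level, since 2 were among the 12 highest. Of the segments of smallest p, 9 had every HFD library below every NCD library, against 5.6% of all genes tested. Igkv4-68 was the exception, with 17.5 TPM in WT-HFD replicate 3 above 14.4 TPM in Casp11-/- NCD replicate 2. These segments were chosen by their diet p in the libraries labelled Casp11-/-, which this count also uses, so the count is a description. Of the 12 highest segments 9 were called, with log2 fold changes over all 12 of -3.69 to -2.28. Igkv10-96 had -3.30 ± 0.67 (SE, adjusted p = 0.016, limma). Igkv1-110, Igkv1-117 and Igkv3-2 missed the threshold, with -2.78 ± 0.72, -2.63 ± 0.68 and -2.28 ± 0.76 (SE) and adjusted p of 0.055, 0.056 and 0.12 in limma. Igkc itself had -3.08 ± 0.79 (SE) and an adjusted p of 0.055 in limma. Its size was like that of the V segments and its spread within Casp11-/- NCD was as wide.

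**Figure D3:**
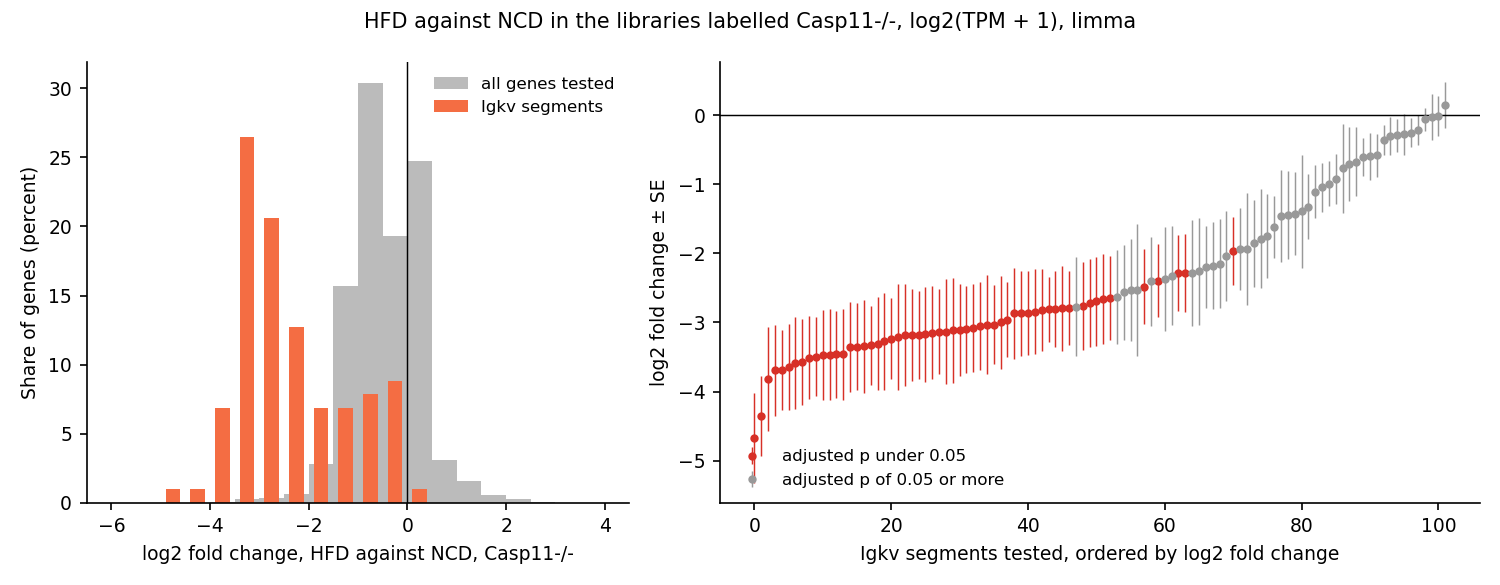
HFD against NCD in the libraries labelled Casp11-/-: left, the share of all 17950 genes tested (grey) and of the 102 Igkv segments (orange) by log2 fold change in bins of 0.5; right, each of the 102 segments with its standard error, red where the adjusted p is under 0.05 in limma (57 segments). The segments lie left of the bulk of genes, with 101 below 0.

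In WT, 88 of the 102 segments had a lower level on HFD at an adjusted p under 0.05 and 0 a higher one (limma), against 2.04% of all genes lower, 0.134% higher and 2.18% either way, and the median log2 fold change was -4.05. These are the libraries that led to the choice of the family, and nothing is read from that count. Between the genotypes on NCD, which share the WT-NCD libraries with that comparison, 2 members were called lower in Casp11-/- mice, against 0.0557% of all genes. At an unadjusted p under 0.05 there were 80, all lower, against 3.24% of all genes in either direction, and 97 of 102 were below 0, with a median of -1.91. The adjusted count was 66 without Casp11-/- NCD replicate 1, against 0.956% of all genes. It was 1 without either WT-NCD library or Casp11-/- NCD replicate 3, against 0.0281% to 0.0675% of all genes. On HFD 0 members were called between genotypes, against 0% of all genes in limma, and 0 were called by limma-voom. At an unadjusted p under 0.05 in limma there were 4, against 0.752% of all genes in either direction. For the interaction of diet and genotype 1 member was called, against 0.00557% of all genes, and it was Igkv3-9.

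Igkv3-9 was well above the floor in the WT-NCD libraries alone. Its WT values were 15.4 and 13.4 TPM on NCD and 1.36, 1.01 and 1.01 TPM on HFD. It was at 1.01, 1.01 and 1.08 TPM in Casp11-/- NCD and at the floor in all 3 Casp11-/- HFD libraries. In the libraries labelled Casp11-/- its log2 fold change on HFD was -0.02 ± 0.29 (SE, adjusted p = 0.96, limma), with values near the floor on both diets. As a share of Igkv reads, WT-NCD had 7.53 per 10000 (46 of 61078 reads, exact 95% interval 5.51 to 10.04) and 6.97 per 10000 (45 of 64546, 5.09 to 9.33). Casp11-/- NCD replicate 1, with 47473 Igkv reads, was at the floor, which can hide at most 2 reads or 0.421 per 10000. In replicate 2 the floor can hide at most 2 of 4709 reads, or 4.25 per 10000. Replicate 3 had 1 of 4301 reads, or 2.33 per 10000 (exact 95% interval 0.0589 to 12.9). These intervals cover counting error only. Casp11-/- NCD replicates 2 and 3 and the HFD libraries, with 523 to 2428 Igkv reads each on HFD, were too shallow to be told from WT-NCD. The lower share in Casp11-/- NCD thus rests on replicate 1.

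Igkv4-62 was the other segment called lower in Casp11-/- NCD at the adjusted threshold. It had 27 and 36 reads in WT-NCD, or 4.42 and 5.58 per 10000 Igkv reads, and was at the floor in Casp11-/- NCD replicates 1 and 2. Casp11-/- NCD replicate 3 had 3 of 4301 reads, or 6.98 per 10000 (exact 95% interval 1.44 to 20.4), above both WT-NCD shares. The floor can hide at most 2 reads in replicates 1 and 2, or 0.421 and 4.25 per 10000. Replicates 2 and 3 were thus too shallow to be told from WT-NCD, and a lower share was seen in replicate 1 alone. Of the 86 segments with at least 20 reads in both WT-NCD libraries, Igkv3-9 and Igkv4-62 were the 2 at the floor in Casp11-/- NCD replicate 1. None of the 85 segments with at least 20 reads in that library was at the floor in both WT-NCD libraries.

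By subgroup, the make-up of the Igkv sum was broad in every group. Igkv6, Igkv1 and Igkv4 held the largest shares, and together with Igkv10 and Igkv8 they held most of the sum. On HFD, Igkv3 had a higher mean share than Igkv10 or Igkv8. It was 8.02% ± 2.0 in WT-HFD and 10.6% ± 3.8 in Casp11-/- HFD (SD, n = 3 each). Igkv6 had 18.3% ± 1.3 in WT-NCD (SD, n = 2), 16.1% ± 3.2 in WT-HFD, 16.7% ± 1.4 in Casp11-/- NCD and 14.0% ± 1.9 in Casp11-/- HFD (SD, n = 3 each). Igkv4, the subgroup with the most members at 33, had 12.3% ± 1.3, 17.7% ± 1.8, 15.7% ± 3.4 and 18.6% ± 4.4 in the same order. In the libraries labelled Casp11-/-, Igkv6 was 15.5% to 18.2% on NCD and 11.9% to 15.4% on HFD, just without overlap, while the Igkv4 ranges overlapped. Igkv10 had 13.0% and 10.04% in WT-NCD and 7.21% to 7.68% in WT-HFD, but 8.09% to 11.03% in Casp11-/- NCD against 3.64% to 14.6% in Casp11-/- HFD.

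Igkv15, held up by Igkv15-103, was 1.94% to 5.18% in Casp11-/- NCD and 0.545% to 1.54% in Casp11-/- HFD, and these ranges did not overlap. Its WT shares were 1.19% and 1.88% on NCD and 0.637% to 2.20% on HFD, which did overlap. Of the 18 subgroups with a segment tested, 15 had at least 1 segment lower on HFD in Casp11-/- mice. Igkv8 had 8 of 10 and Igkv6 had 6 of 9, while Igkv4 had 13 of 28 and Igkv1 had 3 of 9, beside the 0.986% of all genes called lower. Igkv11-125, Igkv16-104 and Igkv7-33 were the only segments tested of their subgroups and were not called. Igkv11-125 was at 51.7, 4.07 and 5.51 TPM in Casp11-/- NCD and left the floor in 1 Casp11-/- HFD library, at 3.96 TPM. Igkv7-33, Igkv18-36 and Igkv20-101-2, each the sole member of its subgroup, did not exceed 3.50 TPM in any library.

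**Figure D4:**
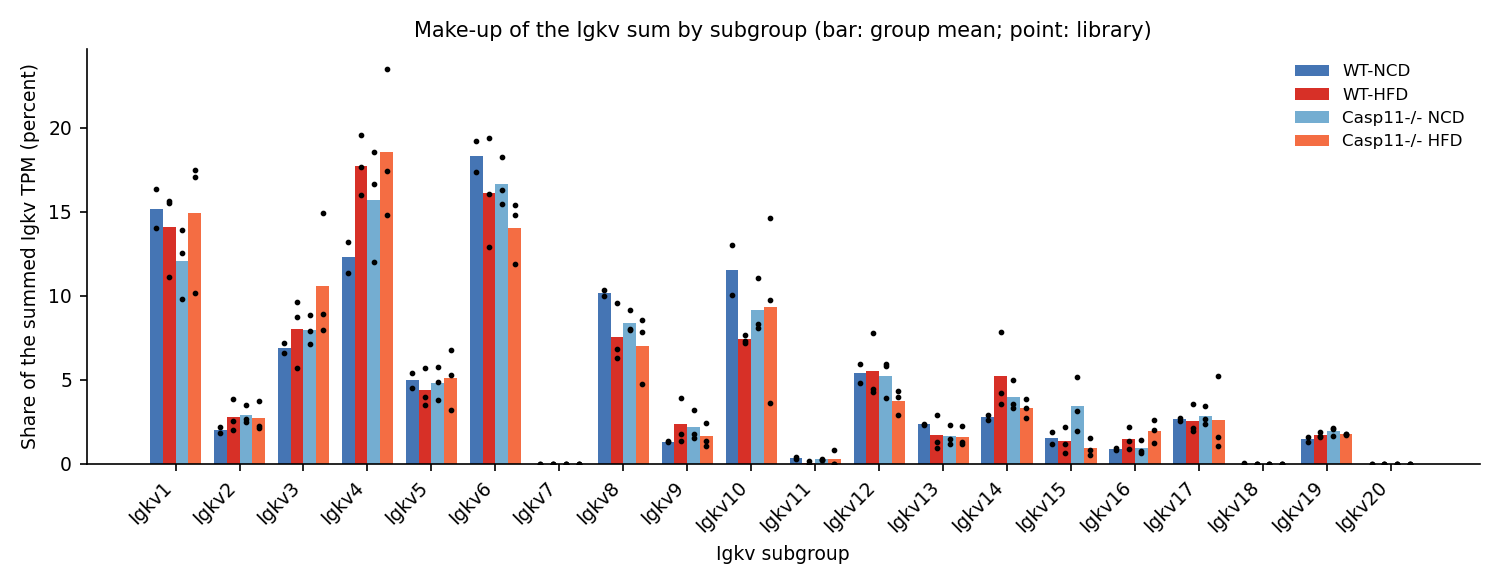
Share of the summed Igkv TPM held by each of the 20 subgroups; bars are group means and points are libraries (2 in WT-NCD, 3 in each other group). Igkv1, Igkv4 and Igkv6 are among the tallest bars, and Igkv6 runs from 11.9% to 19.4% over the 11 libraries.

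Many segments contributed to the sum in every library. The segment of highest share held 5.92% to 10.2% of the sum in each library, and the top 10 held 35.9% to 46.6%. Igkv10-96 led in all 5 NCD libraries and in 2 HFD libraries. Igkv1-117 led in WT-HFD replicate 1, Igkv1-110 in WT-HFD replicate 3 and Casp11-/- HFD replicate 2, and Igkv4-55 in Casp11-/- HFD replicate 1. That Igkv4-55 value, 52.0 TPM, stood for 46 reads. No single segment took over the sum in any library.

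The effective number of segments, the exponential of the Shannon entropy of the shares, was 52.7 ± 1.7 in WT-NCD (SD, n = 2), 50.3 ± 0.78 in WT-HFD, 56.5 ± 3.6 in Casp11-/- NCD and 46.7 ± 3.2 in Casp11-/- HFD (SD, n = 3 each). With values at the floor included it was 73.1 in WT-HFD and 78.3 in Casp11-/- HFD, above the 62.4 in Casp11-/- NCD, so the order of the groups rests on how the floor is treated. At a common depth of 500 Igkv reads, 73.0 to 78.5 segments would be seen in the NCD libraries and 65.4 to 71.8 in the HFD libraries. The floor hides up to 3 reads of a segment of median length in Casp11-/- HFD replicate 3 and none in Casp11-/- HFD replicate 1, and its part in this gap was not tested.

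The make-up was compared between libraries as the sum, over segments, of the smaller of the 2 shares, which is 100% for equal make-up. The WT-NCD libraries shared 89.0%, and Casp11-/- NCD replicate 1 shared 86.4% and 85.3% with them. These 3 libraries had 47473 to 64546 Igkv reads. Pairs of HFD libraries shared 64.5% to 77.8%, and pairs of 1 NCD and 1 HFD library shared 66.1% to 79.0%. These ranges overlapped. Both libraries of an HFD pair had few Igkv reads (523 to 2428), and pairs with few reads had low values. The measure was not matched for depth, so it cannot show whether HFD libraries were closer to each other than to NCD libraries.

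The members lie on chromosome 6 of GRCm38 from 67555636 to 70704177 in RefSeq, upstream of Igkj1 (start 70722562) and Igkc (70726435 to 70726754). Of the 160 with a strand in GENCODE, 75 are on the plus strand and 85 on the minus strand, so that joining takes place by inversion or by deletion of the DNA between. Igkv10-96 lies 2090 kb upstream of Igkj1 and Igkv1-110 2451 kb. When the members were cut into 4 blocks along the locus, the 41 nearest to Igkj1 held 37.0% ± 1.5 of the sum in WT-NCD, 34.2% ± 1.6 in WT-HFD, 35.03% ± 2.8 in Casp11-/- NCD and 34.1% ± 3.4 in Casp11-/- HFD (SD). The 40 farthest held 25.2% ± 1.3, 28.3% ± 2.1, 26.4% ± 2.1 and 26.4% ± 4.0 in the same order. Between them, the second block of 41 held 15.4% ± 1.8, 20.5% ± 2.1, 18.5% ± 2.5 and 19.9% ± 4.2, and the third block of 40 held 22.4% ± 2.0, 17.0% ± 1.4, 20.1% ± 1.7 and 19.7% ± 4.2. The middle blocks thus moved in opposite ways between diets in WT, by more than the SD, and by less than the SD of the HFD group in Casp11-/- mice.

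**Figure D5:**
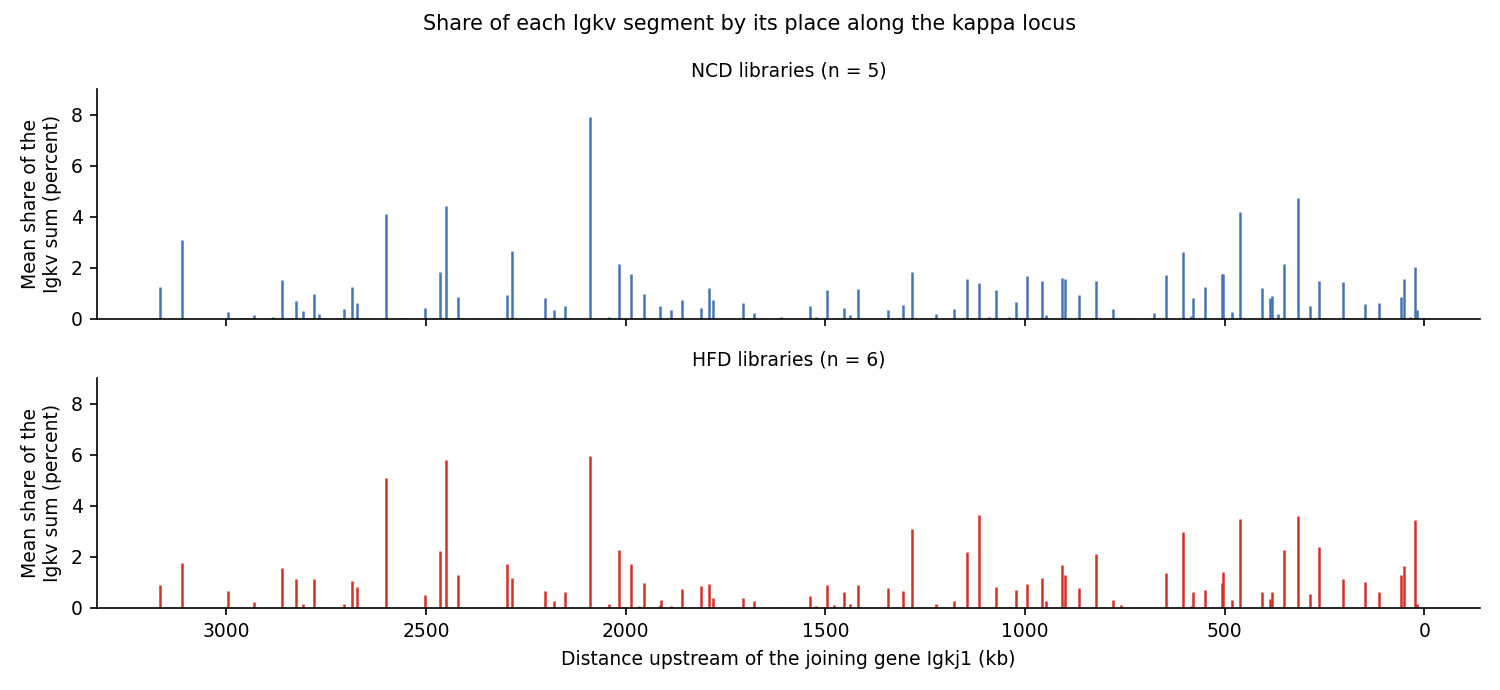
Mean share of the summed Igkv TPM for each member against its distance upstream of Igkj1 in kb, for the 5 NCD libraries (top) and the 6 HFD libraries (bottom); each line is 1 segment. Both diets draw on segments from the whole locus, and the tallest line in both panels is Igkv10-96, with mean shares of 7.89% and 5.96%.

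The members that were silent were mostly pseudogenes. Of the 45 at the floor in all 11 libraries, 43 were pseudogenes and 2, Igkv1-35 and Igkv8-26, were annotated as V segments. Of the 60 pseudogenes, 5 were above the floor in at least 3 libraries. Igkv13-89-1, a pseudogene, was the only member whose log2 fold change on HFD was above 0 in both genotypes, at 0.15 ± 0.33 (SE, adjusted p = 0.70, limma) in Casp11-/- mice. Its value was 0.776 times that of Igkj1 in each of the 11 libraries, of 12, where it was above the floor, so it carried no reads and its apparent rise is not one of RNA. In the main fit, all members that carried reads and passed the filter had a log2 fold change below 0 in both genotypes. For those above the floor on NCD alone, such as Igkv7-33, a rise was not possible there. With protein-coding scaling, 9 of the 102 members tested were above 0 in Casp11-/- mice and 3 in WT.

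Other genes of the B lineage were lower on HFD in Casp11-/- mice too. Of 15 B cell markers, 8 were called lower and 0 higher, and 15 were lower at an unadjusted p under 0.05 (limma). Of all genes, 0.986% were called lower and 24.3% were lower at an unadjusted p under 0.05. The median log2 fold change of the 15 was -2.17, and Cd79a was among those called (-2.45 ± 0.53, SE, adjusted p = 0.024, limma). Ms4a1 missed the threshold at -1.86 ± 0.52 (SE, adjusted p = 0.078, limma). Of 10 plasma cell genes 4 were called lower and 9 were lower at an unadjusted p under 0.05 (limma), with a median of -1.62. Those called included Jchain (-3.64 ± 0.69, SE, adjusted p = 0.012, limma) and Mzb1 (-2.75 ± 0.58, adjusted p = 0.021). Of the 7 lambda chain genes 6 were called lower, led by Iglv1 (-3.97 ± 0.48, SE, adjusted p = 0.00023, limma). The seventh, Iglj1, had the value of a gene without reads. Igha and Ighg2b were the 2 heavy-chain constant genes of 7 tested that were called lower. All 7 were lower at an unadjusted p under 0.05 (limma), among them Ighm (-2.11 ± 0.62, SE, adjusted p = 0.092, limma).

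Among the octamer factors, which bind immunoglobulin promoters, the coactivator gene Pou2af1 was called lower (-2.48 ± 0.51, SE, adjusted p = 0.018, limma). Pou2f2 and Pou2f1 were at -1.76 ± 0.59 and -0.79 ± 0.47 (SE). The recombination genes Rag1 and Rag2 and the surrogate light chain genes Vpreb1 and Igll1 were at the floor in every library, except 2.55 TPM of Rag1 in Casp11-/- NCD replicate 3. Of 10 T cell markers 0 were called, with a median of -1.34. At an unadjusted p under 0.05, 7 of them were lower (limma), against 24.3% of all genes. Of 10 Kupffer cell markers 5 were called higher and 0 lower, against 0.117% of all genes called higher. Those called included Clec4f (2.62 ± 0.52, SE, adjusted p = 0.014, limma) and Vsig4 (2.87 ± 0.49, adjusted p = 0.0053). Csf1r was the 1 marker with a log2 fold change below 0, at -0.46 ± 0.65 (SE). Of 6 neutrophil and 7 hepatocyte markers 0 were called, with 1 and 2 at an unadjusted p under 0.05 (limma). Of 5 sinusoidal endothelial markers Lyve1 was called higher, and 4 were higher at an unadjusted p under 0.05 (limma). Of all genes, 27.0% had an unadjusted p under 0.05 in either direction.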

How the data were processed

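Total RNA libraries, made from random-primed cDNA with strand orientation kept, were sequenced by the authors as single reads of 75 bases, aligned to mm10 (GRCm38.p6 in the submitters' processing notes) with STAR and turned into TPM with the Qlucore Omics Explorer software. Each deposited file holds 1 score per gene, which is TPM raised to a floor of 1.01, and its total per library is 1000353 to 1022495. Each file also had 6 rows without a gene name, which were left out. Read numbers are not in the files. They were recovered from the values, assuming that the authors' software added 0.5 of a read to every gene. The joining genes gave the value of a gene without reads, and the 0.5 was inferred from the whole read numbers that resulted. WT-NCD replicate 3 served as the measure of gene length.

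Differences were fitted on the log2(TPM + 1) scale by limma (version 3.58.1, under R 4.3.3), using a shared spread of 4 groups, a trend on the mean, and two-sided p-values adjusted over all genes tested by Benjamini-Hochberg. Sums and shares used values above the floor and were not tested. RefSeq (GRCm38.p6) matched all 162 segments and gave gene types and positions, and GENCODE vM21 matched 160 and gave strands, transcripts and coding parts. Stretches of 75 bases shared between genes were counted in the GENCODE transcripts. Python 3.11.15, pandas 2.3.3, numpy 2.4.6, SciPy 1.17.1, matplotlib 3.10.9 and edlib 1.3.9.post1 were used. The limma step was tested on simulated data. The mice are separate animals in the study's methods, with 1 library each.

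The members and gene lists were chosen with earlier results of these data known. Named segments are the 12 of highest mean, Igkv3-9, the 10 of smallest p in Casp11-/- HFD against NCD, those above 0 on HFD in both genotypes, and the highest in each subgroup. Igkv4-62, Igkv4-55, Igkv10-95, Igkv3-10, Igkv1-35 and Igkv8-26 were named after their values were seen. So were Mzb1, Igha, Ighg2b, Pou2af1, Lyve1, Marco, Csf1r and Adgre1 outside the rule's first genes of each list. Alternatives were all 12 libraries, protein-coding scaling, filters in 1 or 6 libraries, a pseudocount of 0.1, a spread from the groups compared, a replicate block, each library left out, and, added after the data were seen, limma-voom on recovered reads, ratios of means without each Casp11-/- library, and removal of the libraries with Casp4 in the WT range. The 5 U3 genes are Snord3a and Snord3b1 to Snord3b4. The values of 1 B cell marker are not reported here.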

Additional observations from a re-analysis of the deposited data

Results flagged for a closer look

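The diet effect on Igkv3-9 differed between the genotypes by 2.84 on the log2(TPM + 1) scale, from a log2 fold change of -2.86 in WT and of -0.02 in the libraries labelled Casp11-/-. The WT values of this segment led to the choice of the family, so this difference is a description and its test is not independent. It rested on the 2 WT-NCD libraries, at 13.4 TPM or more, while the other 9 libraries were at 1.36 TPM or less. Of the Casp11-/- NCD libraries, replicate 1 alone held enough Igkv reads to show a share below that of WT-NCD. The interaction was not called when any 1 of the WT-HFD libraries or Casp11-/- HFD replicate 2 was left out, with all 12 libraries, or with limma-voom on the recovered reads.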

How the results depend on the processing

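For HFD against NCD in the libraries labelled Casp11-/-, the count of 57 members was 30 with protein-coding scaling (0.713% of all genes called lower). It was 0 with all 12 libraries, with genes above the floor in 1 library included, and with limma-voom. When 1 library was left out it was 10 (0.136% of all genes called lower) to 87 (46.1%). Of the 17 named segments called, 7 were no longer called without Casp11-/- NCD replicate 1. For WT, the count of 88 was 4 with all 12 libraries (0.103% of all genes called lower) and 23 with the 1-library filter (0.388%). It was 0 with limma-voom (0.00557%), and 71 (1.02%) to 91 (5.78%) with 1 library left out. Between genotypes on NCD, the count of 2 was 0 with all 12 libraries, with the spread of the groups compared and with limma-voom. It was 5 with the 6-library filter (0.151% of all genes called lower) and 4 with the replicate block (0.0891%). With 1 library left out it was 1 to 66 (0.956% of all genes for the 66). The interaction count of 1 was 0 with all 12 libraries, with the 6-library filter and with limma-voom, and 0 to 3 with 1 library left out. The cause of these shifts was not tested.

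The WT-NCD sum was 18160 TPM without its highest segment and 15512 TPM with all 12 libraries, and the Casp11-/- HFD sum was 624 TPM with floor values included. The effective number of segments in WT-NCD was 55.9 without the highest segment and 86.1 with all 12 libraries. It was 73.1 in WT-HFD with floor values included and 48.9 with V segments alone. With floor values it was 62.4 in Casp11-/- NCD and 78.3 in Casp11-/- HFD. Igkv3-9 turned from -0.02 to 0.26 with protein-coding scaling and to 0.11 with limma-voom, and Igkv13-89-1 ran from -0.22 (without Casp11-/- HFD replicate 1) to 0.44 with 1 library left out. Of 400 values of the 20 segments that were among the 12 highest or the 10 of smallest p, which do not include those 2, 304 kept their side of the threshold, 74 lost the call, 22 gained it and 0 changed sign. The ratio of NCD to HFD means of the sum in Casp11-/- mice, recomputed after seeing the data, was 4.597 to 20.06 with 1 library left out.

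Replicate numbers were not used as pairs in the main fit. Of 15 same-numbered pairs, 8 correlated above 0.1 (-0.327 to 0.467). Pairs of unlike number were not compared, so these values cannot show whether the replicate numbers pair the samples. With the replicate block the counts were 71 in Casp11-/- mice and 91 in WT, beside 5.97% and 6.04% of all genes called lower. Depth limits segments of few reads in the HFD libraries, which held 523 to 2428 Igkv reads.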
